A study of Homo sapiens with 6 samples.

Results

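The proteins that license replication origins, open them and copy DNA at the fork were followed through 48 genes in HSC-3 cells, a long-established human line derived from oral squamous cell carcinoma. The genes were chosen by symbol from a list of known replication proteins, with no measured value in the rule. The choice was made with earlier results of these data known. All 48 were found among the 22941 genes of the count table, and all 48 were among the 14736 genes with enough counts to be tested. RNA was sequenced from 3 libraries of cells in simulated microgravity, produced with a Rotary Cell Culture System, a rotating culture vessel, and from 3 libraries of cells in normal gravity. Both groups came from the same line in serum-containing DMEM, with no drug or genetic change named, and the sources used here do not state the time spent in rotation. A single tumour line was used, so the replicates differ in culture and not in donor. Total counts per library ran between 34264008 and 36317678 in simulated microgravity and between 37276166 and 38861233 in normal gravity. The titles call the libraries biological replicates without saying how separate the cultures were, so p-values reflect the spread among these libraries only, and some of that may be technical.

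Each round of DNA replication begins with licensing. The origin recognition complex (ORC) marks the sites, CDC6 and CDT1 load the ring-shaped MCM2-7 helicase on them, and geminin blocks further loading once S phase has begun. The kinase CDC7 with DBF4, together with cyclin-dependent kinases, then turns the loaded ring into the active helicase by adding CDC45 and the GINS complex. At the moving fork, polymerase alpha-primase lays down primers, replication factor C (RFC) loads the sliding clamp PCNA, and polymerases epsilon and delta extend the leading and lagging strands. Many of these genes are transcribed at the passage into S phase under E2F transcription factors, so their transcripts are abundant in dividing cells and scarce in resting ones.

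The promoters of these genes are shown for 6 members, none of them from the middle of the range of responses described below. They were chosen after their values had been seen: 4 that hold E2F-type letters, MCM10 with the lowest fold change, and ORC4 with almost none. Each line gives the 150 bases before the transcription start on the gene's own strand, from RefSeq GRCh38.p14. Capitals mark the E2F-type words TTTCCCGC, TTTGGCGC, TTTCGCGC and TTTGCCGC and the word CCAAT, searched on both strands, so that a capital run can be the reverse complement of a word. MCM6 lies at chr2:135876444-135876593 (minus strand), GINS2 at chr16:85688955-85689104 (minus strand), CDT1 at chr16:88803639-88803788 (plus strand), RFC3 at chr13:33817999-33818148 (plus strand), MCM10 at chr10:13161408-13161557 (plus strand) and ORC4 at chr2:148021552-148021701 (minus strand).
MCM6: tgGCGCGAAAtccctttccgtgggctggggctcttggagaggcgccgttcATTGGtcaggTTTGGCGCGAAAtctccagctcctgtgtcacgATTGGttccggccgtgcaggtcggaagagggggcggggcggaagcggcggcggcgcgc
GINS2: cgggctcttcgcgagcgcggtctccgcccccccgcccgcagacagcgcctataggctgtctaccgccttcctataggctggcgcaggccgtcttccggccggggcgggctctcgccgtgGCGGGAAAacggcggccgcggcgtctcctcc
CDT1: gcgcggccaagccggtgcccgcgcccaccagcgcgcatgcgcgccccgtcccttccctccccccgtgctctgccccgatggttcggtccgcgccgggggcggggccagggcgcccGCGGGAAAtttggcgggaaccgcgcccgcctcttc
RFC3: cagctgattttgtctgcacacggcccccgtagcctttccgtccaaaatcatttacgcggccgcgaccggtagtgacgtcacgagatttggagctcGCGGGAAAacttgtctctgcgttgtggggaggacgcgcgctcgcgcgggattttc
MCM10: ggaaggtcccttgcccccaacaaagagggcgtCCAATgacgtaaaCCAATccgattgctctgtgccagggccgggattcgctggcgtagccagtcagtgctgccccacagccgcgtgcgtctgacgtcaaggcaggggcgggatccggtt
ORC4: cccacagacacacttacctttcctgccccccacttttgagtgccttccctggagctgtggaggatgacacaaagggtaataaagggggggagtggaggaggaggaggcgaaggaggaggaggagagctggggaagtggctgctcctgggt

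The MCM6 promoter held 3 E2F-type matches, of which TTTGGCGC and the reverse complement of TTTCGCGC overlap, and 2 CCAAT words. GINS2, CDT1 and RFC3 each held 1 E2F-type match, at 31, 35 and 55 bases before the start. MCM10 held 2 CCAAT words and no E2F-type match, and ORC4 held neither. A promoter was listed for 42 members, and MCM4, MCM5, GINS4, POLD3, RPA2 and RPA3 were not among them. Within 250 bases before a start, an E2F-type word occurred in 15 of the 42 members (35.7%, Wilson 95% interval 23.0 to 50.8), against 928 of all 27305 genes listed (3.40%). CCAAT occurred in 25 of the 42 members (59.5%), against 37.0% of all genes listed. Members with an E2F-type word had a median log2 fold change of -1.97 (15 genes), and those without one had a median of -2.003 (27 genes). A match describes the letters only and does not show that a factor binds there.

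Transcripts of the 48 genes fell in simulated microgravity almost without exception. By edgeR's quasi-likelihood test, with Benjamini-Hochberg adjustment over all tested genes and a threshold of 0.05, 45 of the 48 genes fell, none rose and 3 did not pass. The 3 were ORC4, POLE and RPA2. Among all tested genes the same rule called 29.3% lower and 28.2% higher. No member was higher at an unadjusted p under 0.05, and none was called higher by DESeq2 or limma-voom. The fall was at least 2-fold for 38 members, where 15.6% of all tested genes met that rule. It was at least 8-fold for 13 members and at least 16-fold for 6, CDC6, CDT1, MCM10, CDC45, GINS2 and CLSPN. The share of all tested genes that fell by these larger amounts was not counted. The median log2 fold change of the members, simulated microgravity minus normal gravity, was -1.95, against -0.01 for all tested genes. Log2 fold changes below keep this direction and carry a standard error (SE).

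Levels are CPM (read counts scaled to a common library size), given for replicates 1, 2 and 3 in that order. The 48 genes together took 945, 968 and 983 CPM in simulated microgravity, against 3523, 3764 and 1652 CPM in normal gravity. The 3 simulated microgravity libraries lay close together, while normal gravity replicate 3 lay between them and the other normal gravity libraries. Relative to the simulated microgravity mean, the sum was 3.65-fold, 3.90-fold and 1.71-fold higher in normal gravity replicates 1, 2 and 3. The median coefficient of variation of a member was 10.8% in simulated microgravity and 43.0% in normal gravity. Every simulated microgravity library lay below every normal gravity library for 42 of the 48 genes, a pattern met by 33.3% of all tested genes. The groups overlapped for ORC4, MCM5, GINS3, POLE, RPA2 and TIPIN. CPM gives each transcript's share of its library, so a shift in the RNA content of whole cells is not seen, and in bulk RNA fewer cells that express a gene cannot be told apart from less of its RNA per cell.

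**Figure D1:**
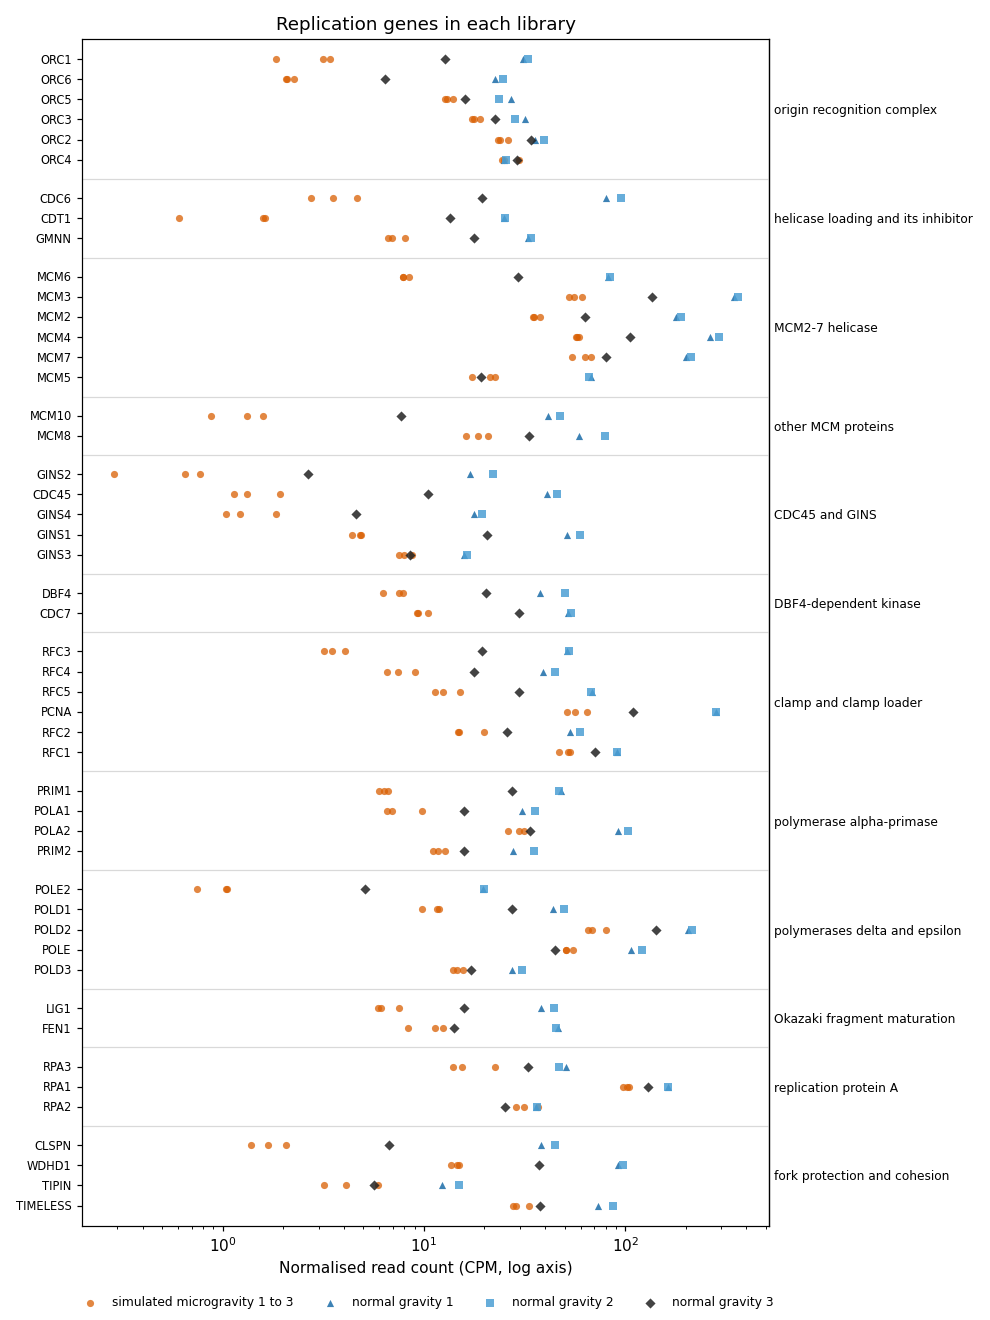
Level of each of the 48 replication genes in each library, in CPM on a log axis, with genes grouped by role. Each symbol is 1 library: the simulated microgravity libraries lie below all normal gravity libraries for 42 genes, and normal gravity replicate 3 is the lowest of its group for 47.

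The ORC genes fell by very unequal amounts. ORC1 and ORC6 fell at least 8-fold, ORC2, ORC3 and ORC5 fell less than 2-fold, and ORC4 did not pass the test. ORC1, an ATP-binding subunit that is made and destroyed with the cell cycle in human cells, was at 3.42, 1.84 and 3.13 CPM in simulated microgravity, against 31.2, 32.9 and 12.8 CPM in normal gravity. Even the lowest normal gravity library, replicate 3, was above every simulated microgravity library. The log2 fold change of ORC1 was -3.19 (SE 0.41, adjusted p = 0.000426). ORC6, the smallest and most loosely held subunit, averaged 2.14 ± 0.11 CPM in simulated microgravity and 17.9 ± 10.0 CPM in normal gravity (SD, n = 3 each). ORC4, a core subunit, had 24.6, 25.0 and 29.5 CPM in simulated microgravity, against 25.0, 25.5 and 29.01 CPM in normal gravity. The ORC4 values of the groups overlapped throughout, and the log2 fold change was -0.01 (SE 0.13, adjusted p = 0.961). ORC2, ORC3 and ORC5, the other core subunits described here, moved by log2 fold changes of -0.57 (SE 0.12), -0.61 (SE 0.15) and -0.74 (SE 0.20). The ORC5 call was lost without simulated microgravity replicate 1 (adjusted p = 0.0508) or normal gravity replicate 1 (adjusted p = 0.0532). The ORC4 transcript overlaps that of ACVR2A on the opposite strand by 430 bases, and whether the counting used strand is not stated in the sources used here.

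The loading factors and their inhibitor had the lowest median log2 fold change of the 12 roles, -4.07 over 3 genes. CDT1, which carries the helicase to the origin, was at 1.58, 1.62 and 0.605 CPM in simulated microgravity, against 25.1, 25.3 and 13.5 CPM in normal gravity. The gap between the groups was wide, with the lowest normal gravity value far above the highest simulated microgravity value. Its log2 fold change was -4.07 (SE 0.41, adjusted p = 0.000113). CDC6, the ATPase that works with ORC to place the helicase, was at 2.76, 4.65 and 3.52 CPM in simulated microgravity, against 80.6, 95.8 and 19.4 CPM in normal gravity. The groups did not overlap, and normal gravity replicate 3 was well below its 2 companions. CDC6 changed on the log2 scale by -4.16 (SE 0.58, adjusted p = 0.00064). GMNN, which encodes geminin, the inhibitor of CDT1, fell less, to 7.20 ± 0.74 CPM in simulated microgravity, against 28.3 ± 9.11 CPM in normal gravity (SD, n = 3 each; log2 fold change -1.97, SE 0.25).

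All 6 genes of the MCM2-7 ring fell, with summed levels of 241, 235 and 245 CPM in simulated microgravity and 1141, 1205 and 433 CPM in normal gravity. MCM6 fell furthest, with 7.90, 8.42 and 7.92 CPM in simulated microgravity, against 82.6, 83.9 and 29.3 CPM in normal gravity. Its groups stood clear of each other (log2 fold change -3.01, SE 0.38, adjusted p = 0.000396). MCM5 had 21.3, 17.4 and 22.7 CPM in simulated microgravity, against 67.9, 66.0 and 19.2 CPM in normal gravity. Normal gravity replicate 3 lay inside the range of the simulated microgravity libraries for MCM5, while the other normal gravity libraries were about equally high. MCM5 changed by -1.32 on the log2 scale (SE 0.42, adjusted p = 0.0289). Its call was lost when any library except normal gravity replicate 3 was left out, with adjusted p-values between 0.0679 and 0.0972, and without replicate 3 its log2 fold change was -1.71. MCM2, MCM3, MCM4 and MCM7 had log2 fold changes between -2.32 for MCM3 and -1.41 for MCM7. The MCM7 call was lost without the filter on low counts (adjusted p = 0.0582). Against normal gravity replicate 3 alone, the log2 fold change of MCM7 was -0.37. The transcript of MCM7 shares 392 bases with AP4M1 on the opposite strand, a gene at 15.4 CPM in simulated microgravity and 10.0 CPM in normal gravity, and its reads may be mixed with those of AP4M1.

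The other MCM proteins are not part of that ring. MCM10, which helps to activate the assembled helicase, had the largest fall of all 48 genes, with 1.32, 0.878 and 1.59 CPM in simulated microgravity, against 41.2, 47.5 and 7.68 CPM in normal gravity. All normal gravity values were above all simulated microgravity values, with replicate 3 the nearest (log2 fold change -4.66, SE 0.69, adjusted p = 0.000812). MCM8, a helicase of recombinational repair that pairs with MCM9, was at 18.5, 20.7 and 16.2 CPM in simulated microgravity, against 59.2, 79.8 and 33.3 CPM in normal gravity. The groups were separate, and the fall was smaller than that of MCM10 (log2 fold change -1.64, SE 0.29, adjusted p = 0.00206).

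CDC45 and 3 of the 4 GINS genes, the parts that turn the loaded ring into a working helicase, fell at least 8-fold. CDC45 averaged 1.46 ± 0.41 CPM in simulated microgravity and 32.3 ± 19.1 CPM in normal gravity (SD, n = 3 each; log2 fold change -4.47, SE 0.58). GINS1 was at 4.40, 4.85 and 4.81 CPM in simulated microgravity, against 51.7, 59.4 and 20.6 CPM in normal gravity. The simulated microgravity values were nearly equal and all normal gravity values were higher (log2 fold change -3.23, SE 0.38, adjusted p = 0.000274). GINS2 reached the lowest level of any member in 1 library, with 0.287, 0.652 and 0.770 CPM in simulated microgravity, against 16.9, 22.1 and 2.66 CPM in normal gravity. Even normal gravity replicate 3 was above them (log2 fold change -4.60, SE 0.80). GINS4 changed by -3.35 on the log2 scale (SE 0.55). GINS3 was the exception, with 7.99, 7.54 and 8.74 CPM in simulated microgravity, against 15.9, 16.4 and 8.53 CPM in normal gravity. Its normal gravity replicate 3 lay within the simulated microgravity range. The log2 fold change of GINS3 was -0.75 (SE 0.26, adjusted p = 0.0331), and the call was lost when any library except normal gravity replicate 3 was left out (adjusted p between 0.0708 and 0.112). In the kinase that triggers this step, both subunits fell. CDC7, the catalytic subunit, was at 9.31, 10.5 and 9.24 CPM in simulated microgravity, against 51.7, 53.6 and 29.8 CPM in normal gravity. Its activator DBF4 was at 7.53, 7.91 and 6.27 CPM in simulated microgravity, against 37.7, 50.2 and 20.3 CPM in normal gravity. Neither gene's groups overlapped, and the log2 fold changes were -2.22 for CDC7 (SE 0.23, adjusted p = 9.35e-05) and -2.32 for DBF4 (SE 0.31, adjusted p = 0.000465).

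**Figure D2:**
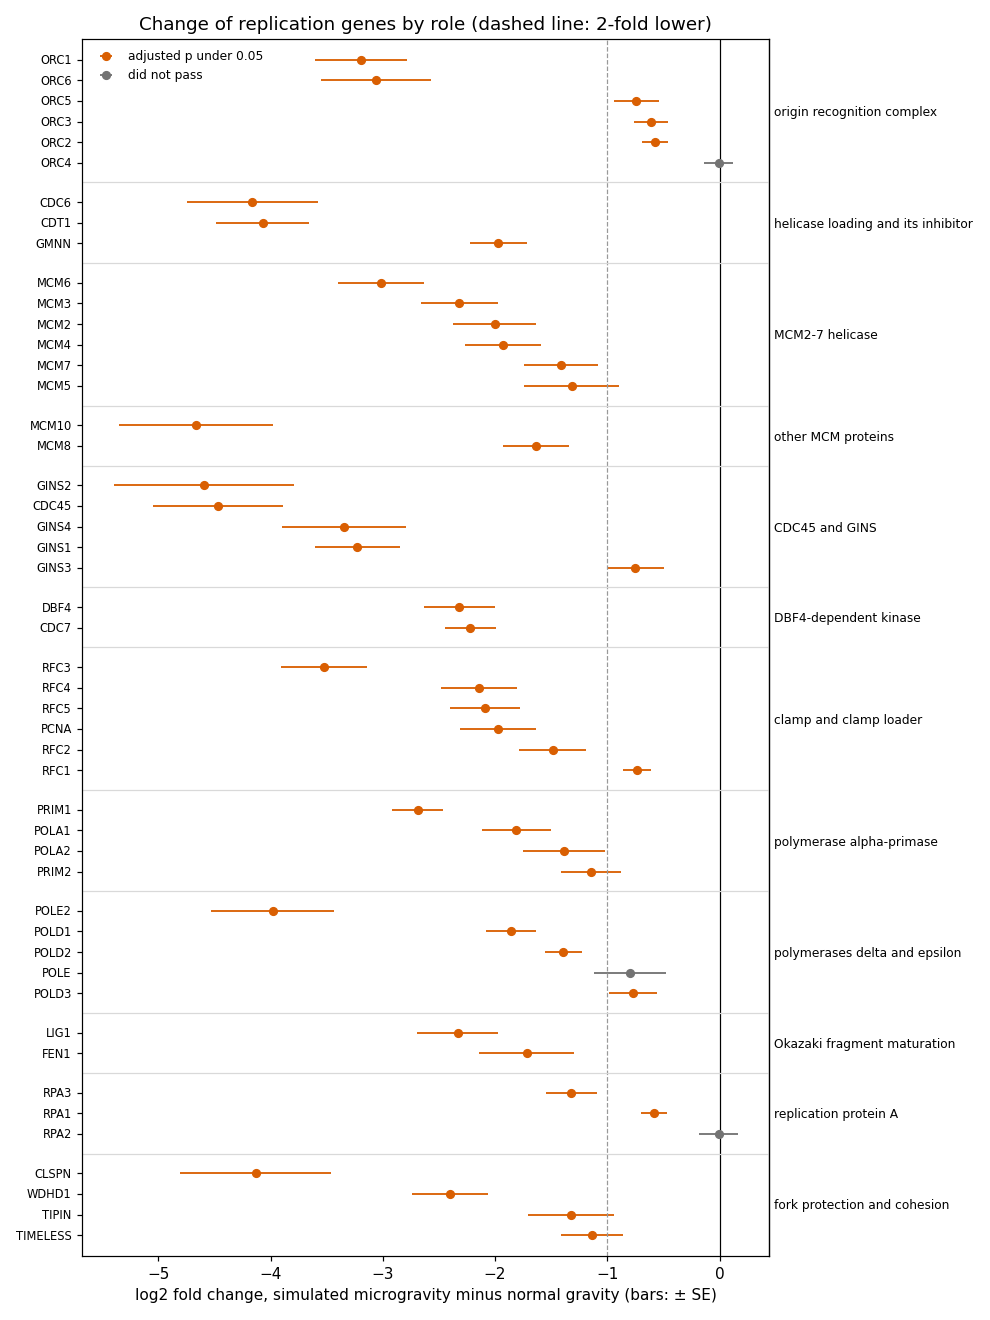
Log2 fold change of each of the 48 genes, simulated microgravity minus normal gravity, with the standard error as a bar and genes grouped by role. The dashed line marks a 2-fold lower level: 38 genes that fell lie beyond it, MCM10 lies furthest at -4.66, and ORC4 and RPA2 lie at -0.01.

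The sliding clamp and all 5 subunits of its loader fell, and the loader's subunits fell by unequal amounts. PCNA, the ring that holds polymerases on DNA, averaged 57.6 ± 6.61 CPM in simulated microgravity and 226 ± 100.2 CPM in normal gravity (SD, n = 3 each; log2 fold change -1.97, SE 0.34). RFC3, a small subunit, was at 4.05, 3.49 and 3.19 CPM in simulated microgravity, against 51.4, 52.5 and 19.5 CPM in normal gravity. Its groups were far apart in every library (log2 fold change -3.52, SE 0.39, adjusted p = 0.000199). RFC2, also a small subunit, was at 14.9, 14.8 and 19.8 CPM in simulated microgravity, against 53.4, 59.6 and 26.0 CPM in normal gravity. Here normal gravity replicate 3 lay nearest to the simulated microgravity libraries without reaching them (log2 fold change -1.49, SE 0.30, adjusted p = 0.00378). RFC4 and RFC5 had log2 fold changes of -2.14 and -2.09. RFC1, the large subunit, moved least at -0.73 (SE 0.12). Annotated pseudogenes carry the names of PCNA, RFC3 and RFC5, among others, and have no row of their own in the count table, so some of their reads may be counted with these genes.

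All 4 subunits of polymerase alpha-primase fell. PRIM1, the catalytic primase subunit, had the smallest adjusted p of all 48 genes, with 6.35, 6.63 and 5.96 CPM in simulated microgravity, against 48.2, 46.7 and 27.4 CPM in normal gravity. The 3 simulated microgravity values were nearly equal and far below the others (log2 fold change -2.69, SE 0.23, adjusted p = 3.67e-05). POLA2, the accessory subunit, was at 26.1, 29.6 and 31.6 CPM in simulated microgravity, against 91.7, 103 and 33.7 CPM in normal gravity. Normal gravity replicate 3 was only just above the simulated microgravity libraries for POLA2 (log2 fold change -1.39, SE 0.37, adjusted p = 0.0129). The POLA2 call was lost without the filter on low counts (adjusted p = 0.0871). Against normal gravity replicate 3 alone, the log2 fold change of POLA2 was -0.21. For POLA1, the DNA polymerase subunit, the log2 fold change was -1.81 (SE 0.31), and for PRIM2, the large primase subunit, it was -1.15 (SE 0.27).

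Of the polymerase delta and epsilon genes among the members, 4 of 5 fell. The further subunits POLD4, POLE3 and POLE4 are counted below among other replication factors. Their log2 fold changes were 1.77 (SE 0.16), -1.04 (SE 0.15) and -0.75 (SE 0.17). POLD2, an accessory subunit of polymerase delta, was at 68.8, 80.1 and 65.1 CPM in simulated microgravity, against 205, 214 and 143 CPM in normal gravity. Its groups were well separated, also from normal gravity replicate 3 (log2 fold change -1.39, SE 0.17, adjusted p = 0.000199). The catalytic subunit gene POLD1 changed by -1.86 on the log2 scale (SE 0.22), and POLD3, a further accessory subunit, by -0.77 (SE 0.21). The POLD3 call was lost without simulated microgravity replicate 1 (adjusted p = 0.0526) or 2 (adjusted p = 0.0535). POLE and POLE2, the polymerase epsilon genes among the members, behaved differently. POLE2, an accessory subunit, averaged 0.942 ± 0.17 CPM in simulated microgravity and 14.9 ± 8.51 CPM in normal gravity (SD, n = 3 each). Its log2 fold change was -3.98 (SE 0.54). POLE, the catalytic subunit, was at 54.8, 50.9 and 51.1 CPM in simulated microgravity, against 106, 121 and 44.7 CPM in normal gravity. Normal gravity replicate 3 was below all 3 simulated microgravity libraries for POLE, whereas the other normal gravity libraries were above them. POLE did not pass the test (log2 fold change -0.80, SE 0.32, adjusted p = 0.0648). Without normal gravity replicate 3 it was called lower, with a log2 fold change of -1.12 and an adjusted p of 2.58e-06.

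Both genes of Okazaki fragment maturation fell. LIG1, the ligase that seals lagging strand fragments, was at 6.15, 7.48 and 5.88 CPM in simulated microgravity, against 38.2, 44.2 and 15.9 CPM in normal gravity. FEN1, the nuclease that trims their flaps, was at 11.3, 8.36 and 12.4 CPM in simulated microgravity, against 46.6, 45.2 and 14.1 CPM in normal gravity. No values overlapped for either gene, although normal gravity replicate 3 was close to the simulated microgravity libraries for FEN1. The log2 fold changes were -2.33 for LIG1 (SE 0.36, adjusted p = 0.00106) and -1.72 for FEN1 (SE 0.42, adjusted p = 0.00958). The FEN1 call was lost without the filter on low counts (adjusted p = 0.0633). Against normal gravity replicate 3 alone, the log2 fold change of FEN1 was -0.39.

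Replication protein A, which coats single-stranded DNA in replication and in repair, had the median log2 fold change nearest to 0 of the 12 roles, -0.59. RPA3, the smallest subunit, was at 14.0, 15.5 and 22.7 CPM in simulated microgravity, against 50.9, 46.7 and 32.9 CPM in normal gravity. The groups were separate, with simulated microgravity replicate 3 the nearest to normal gravity (log2 fold change -1.32, SE 0.23, adjusted p = 0.00134). RPA2, the middle subunit, was at 31.6, 28.7 and 36.8 CPM in simulated microgravity, against 36.0, 36.6 and 25.2 CPM in normal gravity. The RPA2 values were mixed, with normal gravity replicate 3 the lowest of the 6 libraries (log2 fold change -0.01, SE 0.17, adjusted p = 0.966). The log2 fold change of RPA1, the large subunit, was -0.59 (SE 0.11).

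The 4 genes that protect the fork or tie it to other processes all fell. WDHD1, whose protein links the helicase to polymerase alpha, was at 13.6, 14.9 and 14.7 CPM in simulated microgravity, against 92.6, 97.8 and 37.3 CPM in normal gravity. The groups were clearly separate (log2 fold change -2.40, SE 0.34, adjusted p = 0.000655). CLSPN, which encodes claspin, the mediator between a stalled fork and the kinase CHK1, averaged 1.71 ± 0.35 CPM in simulated microgravity and 30.0 ± 20.5 CPM in normal gravity (SD, n = 3 each; log2 fold change -4.13, SE 0.67). TIMELESS and TIPIN encode partners in 1 fork protection complex. TIMELESS changed by -1.14 on the log2 scale (SE 0.28). TIPIN was at 4.08, 3.17 and 5.91 CPM in simulated microgravity, against 12.3, 15.0 and 5.66 CPM in normal gravity. Normal gravity replicate 3 was just below simulated microgravity replicate 3 for TIPIN, and all other values were separate. Its log2 fold change was -1.32 (SE 0.38, adjusted p = 0.0171), and the call was lost without simulated microgravity replicate 1 (adjusted p = 0.0651), simulated microgravity replicate 2 (adjusted p = 0.0668) or normal gravity replicate 1 (adjusted p = 0.0506).

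The normal gravity libraries differed among themselves in these genes. Replicate 3 was the lowest of the 3 for 47 of the 48 genes, ORC4 being the exception. On the log2 scale a member lay a median of 0.37 above the mean of its companions in replicate 1, 0.59 above in replicate 2 and -1.26 from it in replicate 3, while the same median over all tested genes was within 0.01 of 0 in each. Replicate 3 was nevertheless above every simulated microgravity library for 42 members, and below all of them for POLE and RPA2. The share of all tested genes with replicate 3 in any of these positions was not counted. The place of replicate 3 was the percentage of the log2 distance from normal gravity replicates 1 and 2 down to the simulated microgravity mean. Its median was 52.0% over all 48 members and 51.1% over the 45 that fell. Over all genes that fell at least 2-fold it was 4.63%, whereas the member medians also include genes that fell less. In lists described below, the median was 48.6% for other replication factors and 38.6% for E2F factors and pocket proteins. It was 36.8% for licensing turnover and S phase kinases and 34.2% for replication checkpoint genes. Among the 45 members that fell, the place ran between 20.8% for CDT1 and 105% for MCM5. Values over 100 lie past the simulated microgravity mean.

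Against each normal gravity library taken singly, the members were lower in simulated microgravity at the median. The median log2 difference of the simulated microgravity mean was -2.19 against replicate 1, -2.28 against replicate 2 and -1.01 against replicate 3. By role, the loading factors with their inhibitor were at -4.31, -4.32 and -2.42 against replicates 1, 2 and 3. CDC45 with GINS was at -3.71, -3.83 and -2.13, and the MCM2-7 ring at -2.25, -2.37 and -0.84. The clamp and its loader were at -2.33, -2.34 and -1.06, and ORC at -0.92, -0.76 and -0.40. Against each of the 3 libraries the loading factors with their inhibitor had the lowest median of these 5 roles. CDC45 with GINS came next, and ORC was nearest to 0. In edgeR fits against replicate 3 alone, with its spread assumed to be that of the other group, 34 members were lower and none higher (23.1% of all genes tested there were lower). The 11 calls lost were ORC3, ORC5, MCM5, MCM7, GINS3, PRIM2, POLA2, POLD3, FEN1, TIMELESS and TIPIN. Without replicate 3, 46 members were lower and none higher, with a median log2 fold change of -2.24 (31% of all genes tested there were lower).

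**Figure D3:**
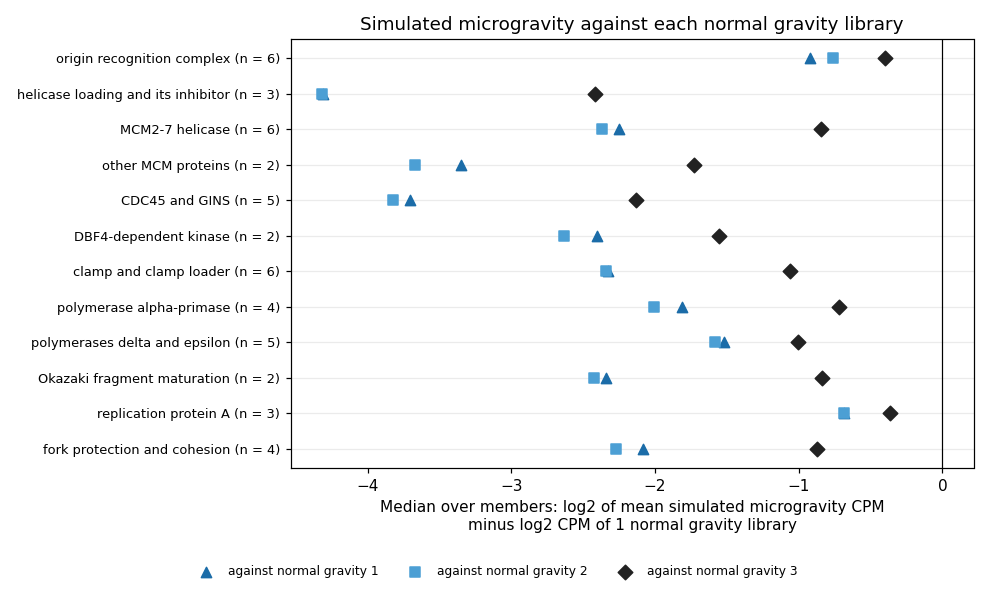
Median log2 difference of the simulated microgravity mean from each normal gravity library, for each of the 12 roles, with 1 symbol per normal gravity library and 0 meaning no difference. Replicates 1 and 2 nearly coincide, and replicate 3 lies nearer to 0, as in the MCM2-7 ring with -2.25, -2.37 and -0.84.

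Subunits of 1 complex are compared here as CPM per kilobase of the principal transcript, since longer transcripts collect more reads. In the GINS complex, whose 4 subunits occur in equal number, the highest transcript exceeded the lowest by 32.7, 13.6 and 13.3-fold in simulated microgravity, against 3.43, 3.63 and 6.37-fold in normal gravity. GINS3 was the highest GINS transcript in every simulated microgravity library and GINS1 in every normal gravity library. The lowest in every simulated microgravity library was GINS2, with only 10, 23 and 28 read counts, so the GINS ratios there rest on few reads. In the RFC loader the same ratio was 6.37, 7.52 and 8.82 in simulated microgravity, against 2.20, 2.17 and 2.21 in normal gravity, with RFC3 the lowest in all simulated microgravity libraries. For the 6 ORC genes it was 6.54, 13.1 and 7.16 in simulated microgravity, against 3.73, 3.98 and 2.29 in normal gravity. ORC1 and ORC6 were the lowest ORC transcripts in each simulated microgravity library. In the MCM2-7 ring the ratio was 10.1, 8.44 and 10.8 in simulated microgravity, against 5.64, 6.06 and 7.81 in normal gravity, with MCM6 the lowest in simulated microgravity and MCM5 in normal gravity. Per kilobase, subunit levels were thus more uneven in every simulated microgravity library than in every normal gravity library for these 4 complexes. The ratios overlapped between the groups for polymerase alpha-primase, with 5.48, 4.44 and 7.04 in simulated microgravity and 6.21, 5.18 and 6.84 in normal gravity. They also overlapped for replication protein A, with 3.40, 3.12 and 2.00 in simulated microgravity and 1.83, 1.79 and 2.09 in normal gravity.

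**Figure D4:**
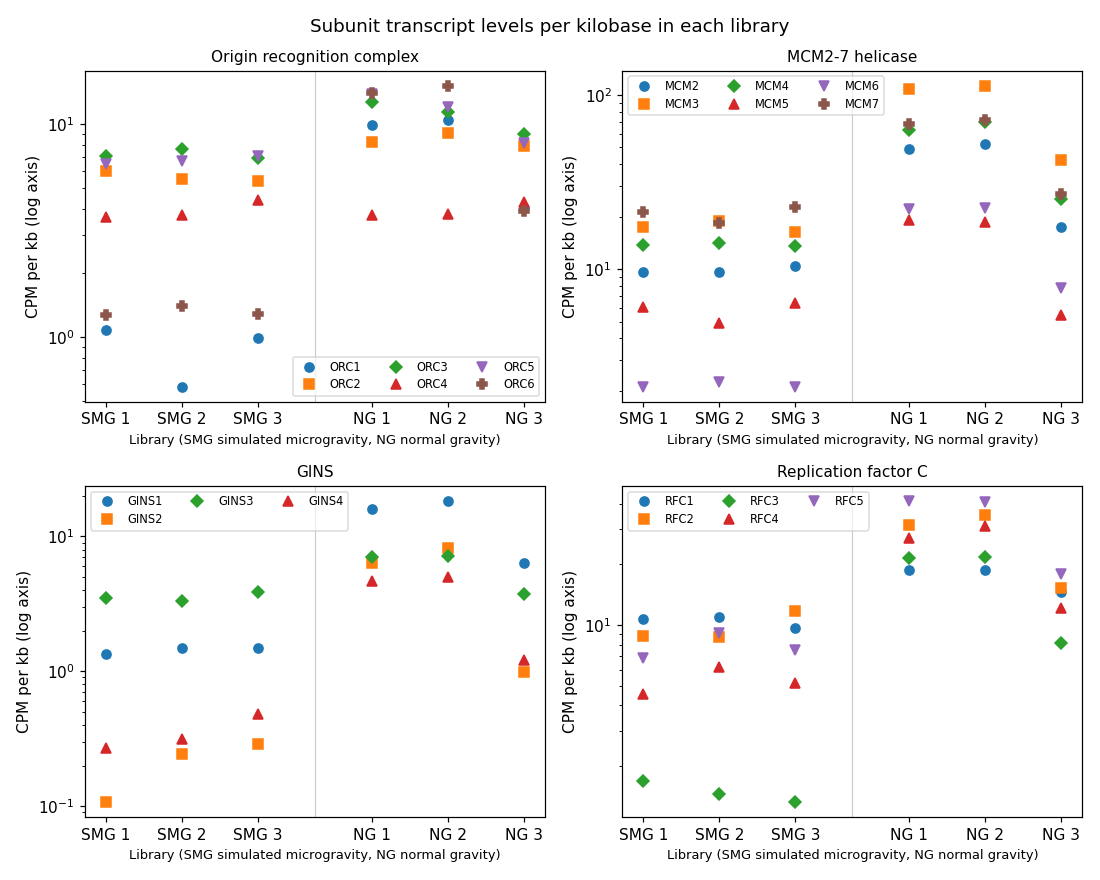
Transcript level per kilobase (CPM per kb, log axis) of each subunit of ORC, the MCM2-7 ring, GINS and RFC in each library, with 1 symbol shape per subunit. Simulated microgravity libraries (SMG) are to the left of normal gravity libraries (NG), and the subunits spread further apart there, as in RFC, where the highest-to-lowest ratio was 6.37 to 8.82 in simulated microgravity and 2.17 to 2.21 in normal gravity.

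Genes that work beside these 48 fell less uniformly. Of 35 tested other replication factors, 28 fell, 3 rose and 4 did not pass, with a median log2 fold change of -1.38. TOP2A, the topoisomerase that untangles replicated DNA, fell to 8.19 ± 2.33 CPM in simulated microgravity, against 436 ± 150 CPM in normal gravity (SD, n = 3 each; log2 fold change -5.73, SE 0.36). POLD4, the small regulatory subunit of polymerase delta, rose to 194 ± 32.6 CPM in simulated microgravity, against 56.7 ± 8.96 CPM in normal gravity (SD, n = 3 each; log2 fold change 1.77, SE 0.16). POLD4 thus went up where POLD1, POLD2 and POLD3 went down. The other genes that rose were TOP1, a topoisomerase that also acts in transcription (log2 fold change 1.02, SE 0.14), and MCM9, the partner of MCM8 (log2 fold change 0.79, SE 0.22), both named after their values were seen. Of 14 genes of licensing turnover and S phase kinases, 10 fell and 4 did not pass. SKP2, the ubiquitin ligase subunit that targets CDT1, changed by -2.53 on the log2 scale (SE 0.20), and CCNA2, which encodes cyclin A2, by -4.88 (SE 0.38).

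Replication checkpoint genes went both ways, with 3 of 8 tested lower and 2 higher (median log2 fold change -0.17). CHEK1, the checkpoint kinase CHK1, fell to 4.77 ± 0.43 CPM in simulated microgravity, against 33.6 ± 11.2 CPM in normal gravity, and HUS1, a subunit of the checkpoint clamp, rose to 37.3 ± 4.64 CPM in simulated microgravity, against 16.3 ± 2.31 CPM in normal gravity (SD, n = 3 each). Of 13 E2F factors and pocket proteins, 10 fell and 2 rose. For E2F2, an activating E2F, the log2 fold change was -4.78 (SE 0.47), and for RBL2, the pocket protein p130 of resting cells, it was 1.03 (SE 0.18). The members were set beside these lists by count only, with no test between them.

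Over all tested genes, the groups separated on the first principal component (84.7% of the variance), and normal gravity replicate 3 stood apart from its companions on the second (7.59%). Markers of the epithelial label were present in all libraries, at 2946 to 3452 CPM summed over 7 genes in simulated microgravity and 10659 to 17998 CPM in normal gravity, with KRT5, KRT14 and TP63 lower and KRT8, KRT18, EPCAM and CDH1 higher. The 5 fibroblast markers summed to 17.5 to 18.4 CPM in simulated microgravity and 11.1 to 29.2 CPM in normal gravity, and LUM was at 0 counts in all normal gravity libraries. The 4 endothelial markers summed to 2.18 to 3.52 CPM in simulated microgravity and 1.60 to 5.76 CPM in normal gravity. The 5 leukocyte markers summed to 264 to 285 CPM in simulated microgravity and 109 to 136 CPM in normal gravity, nearly all of it CD14 and CD68. Non-coding genes took 1.63% to 1.86% of counts in simulated microgravity and 0.999% to 1.22% in normal gravity, and mitochondrially encoded messenger RNAs took 7.54% to 8.60% in simulated microgravity and 9.97% to 12.3% in normal gravity. The part of these differences in the results on the replication genes was not tested.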

How the data were processed

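Gene counts of 6 HSC-3 libraries were used, 3 per group, grouped by the sample titles. The deposited values are raw read counts for each gene (whole numbers). The submitters' processing notes name the tools fastp, HISAT and HTSeq, DESeq2, R 3.2.0 and the build hg38 without their roles. The sources used here do not state the strand setting, annotation release or selection of messenger RNA. Of the column names, that of the rotary culture group is in the treatment protocol, and the other was taken as normal gravity.

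Genes with too few counts were removed (filterByExpr, minimum count 10), which left 14736. The test was the robust quasi-likelihood F-test of edgeR 4.0.16 on TMM-scaled counts (R 4.3.3). A gene was called at a Benjamini-Hochberg adjusted p under 0.05. The standard error of a log2 fold change was approximated by dividing its absolute value by the root of the F statistic. Alternatives used other scalings and filters, DESeq2 1.42.0, limma-voom (limma 3.58.1), a replicate block and fewer libraries. The fit was tested on simulated data. Transcript lengths came from GENCODE release 29 and promoters from RefSeq GRCh38.p14. Intervals cover counting error only.

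The members and lists were chosen with earlier results of these data known. In each role, values per library are given for the members with the smallest and the largest adjusted p and for those that did not pass. From each further list came 2 members with the smallest adjusted p, 1 per direction where members went both ways. Other genes were named after their values were seen.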

Additional observations from a re-analysis of the deposited data

How the results depend on the processing

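Between 41 and 46 members were called lower with other scalings, filters and tools, 42 with a replicate block and 40 to 46 with 1 library left out. Over all genes, those scalings, filters and tools called 4020 to 4759 lower, out of 12910 (CPM filter) to 22941 (no filter) tested. The block called 3985 of 14736 lower. With 1 library left out it was 3503 of 15139 (simulated microgravity replicate 1) to 4722 of 15218 (normal gravity replicate 3). Same-numbered libraries did not deviate together (correlations 0.0494, -0.0437 and -0.0169). The titles do not say whether they were paired, and 3 libraries per group cannot settle it. The block ended the calls of MCM5, GINS3 and TIPIN (adjusted p = 0.0692, 0.0648 and 0.0543). Without a filter MCM5, MCM7, POLA2 and FEN1 lost their calls (0.143, 0.0582, 0.0871 and 0.0633), and with limma-voom MCM5 and GINS3 did (0.0794 and 0.0620). POLE was called lower with upper quartile factors (0.0435) and DESeq2 (0.0234). Against normal gravity replicate 3 alone, the count at least 2-fold lower was 25 and the median log2 fold change -1.01. Against replicate 1 or 2 alone, 4 of the further replication genes were higher, where 7 were with all libraries. The cause was not tested.

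The sign of 2 members near 0 turned. The log2 fold change of ORC4 was 0.01438 with DESeq2 size factors, 0.00873 with library size only, 0.00691 with a CPM filter, 0.01445 with DESeq2, 0.07474 and 0.03159 against normal gravity replicate 1 or 2 alone, and -0.0953 to 0.06097 with 1 library left out. That of RPA2 was 0.01434 with both DESeq2 settings, 0.00076 with library size only, 0.00713 with a CPM filter, 0.00426 with limma-voom, 0.00175 with the block, 0.36 against replicate 3 alone, and -0.165 to 0.08023 with 1 library left out. Against replicate 3 alone, MCM5 was at 0.10 and POLE at 0.23. Set against promoters of tested genes only, E2F-type words occurred in 5.37% and CCAAT in 40.5%. Members under 1 CPM in some libraries, such as GINS2, CDT1, MCM10 and POLE2, rest on few reads there.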

Other observations

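Several of the replication genes start beside a gene read in the opposite direction. In GENCODE release 29, 19 of the 48 members had a protein-coding neighbour on the other strand, reading away from them. Only neighbours among the tested genes were counted, with starts within 1000 bases of the member's. Of these neighbours 7 fell, 4 rose and 8 did not pass, where 29.3% of all tested genes were lower and 28.2% higher. The neighbours had a median log2 fold change of -0.24, while the median of their 19 partners was -1.93. PRPF38A, a splicing factor gene that starts 105 bases from ORC1, averaged 50.7 ± 1.54 CPM in simulated microgravity and 49.2 ± 6.30 CPM in normal gravity (SD, n = 3 each; log2 fold change 0.04, SE 0.12, edgeR adjusted p = 0.775), where ORC1 fell by 3.19. UFD1, a factor for the removal of ubiquitinated proteins whose start lies 244 bases from that of CDC45, rose to 110 ± 8.41 CPM in simulated microgravity, against 73.5 ± 19.4 CPM in normal gravity (log2 fold change 0.58, SE 0.19, edgeR adjusted p = 0.0287), where CDC45 fell by 4.47.

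MAP2K1, the kinase MEK1, starts 71 bases from TIPIN and rose to 202 ± 23.2 CPM in simulated microgravity, against 96.5 ± 5.76 CPM in normal gravity (SD, n = 3 each). PRKDC, the catalytic subunit of the DNA-dependent protein kinase, starts 2 bases from MCM4 and fell with it, to 269 ± 38.95 CPM in simulated microgravity, against 664 ± 189 CPM in normal gravity (log2 fold change -1.30, SE 0.22). SLC25A40, a mitochondrial carrier whose transcript overlaps that of DBF4, also fell (log2 fold change -1.27, SE 0.13). The pairs named here were chosen after their values were seen, no test was made between partners, and without a known strand setting reads of overlapping pairs cannot be told apart.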
